A study of Mus musculus with 18 samples.

Results

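Mouse hepatocytes lacking Mtdh were exposed either to a medium conditioned by macrophages or to TGFb, and the RNA of the 2 treatments was compared. The comparison rested on 6 of the 18 libraries in the series, 3 named conditioned medium (CM) KO and 3 named TGFb KO. CM stands for medium taken from Kupffer cells, the resident macrophages of the liver, after these were given Py8119-EVPs. Py8119 is a mouse mammary tumour line, and the labels do not expand EVPs. The KO label means Mtdh KO, the liver donors are labelled as normal and without tumour, and the design text describes KO and wild-type (WT) mice as age-matched. All 16873 genes of the deposited table were considered, of which 14455 were tested. The remaining 12 libraries, 3 each of TNFa KO, TNFa WT, TGFb WT and CM WT, served for the estimate of spread, as a further treatment level and for the same contrast in the other genotype. The series has no untreated group, so a gene that was higher with CM is the same as a gene that was lower with TGFb. The labels do not give doses, treatment times, sex or age of the mice, the genotype of the Kupffer cells or the part of Mtdh that was removed.

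TGFb binds a type II receptor that recruits the type I receptor Tgfbr1. The type I receptor phosphorylates SMAD proteins, which enter the nucleus and switch on target genes, among them genes of their own inhibitors such as Smad7, Skil and Pmepa1. In hepatocytes the pathway is known for growth arrest, matrix production and loss of differentiated features. Kupffer cells are known for secreting cytokines that act on hepatocytes through NF-kappaB and STAT3 and switch on chemokines and acute-phase proteins. Mtdh encodes metadherin, a membrane-bound protein with roles in tumour progression and in lipid handling by the liver.

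The 6 libraries had summed normalized values of 23700000 to 26400000, and the 3 CM libraries (up to 24900000) were below the 3 TGFb libraries (from 25700000). Estimated depth was between 21500000 and 35600000 reads, and log2 values of replicates within either KO group correlated at 0.941 to 0.953. Albumin, the main product of hepatocytes, took 8.61% to 8.76% of all values with CM and 9.76% to 10.3% with TGFb, so the labelled cell type carried its defining product in each library. Mtdh read 747, 719.5 and 864 with CM and 973, 970.4 and 933 with TGFb, against 10063 to 13725 in the WT libraries of the same treatments. On the log2 scale the KO treatments differed by -0.31 ± 0.11 in Mtdh (limma adjusted p = 0.063), which did not pass, although it passed without CM KO 3 (-0.39, adjusted p = 0.039). Markers of other liver cells were read too. The summed Kupffer cell markers (20 genes) were 10516 to 10824 with CM and 9400 to 10933 with TGFb, the endothelial markers (20 genes) 5205 to 5411 and 5561 to 6785, and the stellate cell markers (20 genes) 3928 to 5229 and 3427 to 4202. In the Kupffer sum, the iron exporter gene Slc40a1 took 1868 to 2287 with CM and 768 to 846 with TGFb. The median log2 difference, CM minus TGFb, was -0.15 for the Kupffer and 0.20 for the endothelial markers. Of the 20 genes in each list, 9 and 11 lay on the CM side. The largest part of the stellate sum was 1 gene, Lox, at 2580 to 3553 with CM and 1606 to 2371 with TGFb. The 14 tested stellate markers had a median log2 difference, CM minus TGFb, of -0.63, and Lox was the 1 that passed. Of 16 lymphocyte and neutrophil markers in the table, 7 were at 0 in all 6 libraries, among them Cd79a and Ly6g. In bulk RNA, a smaller number of cells of a type and less RNA per cell cannot be told apart.

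Across the 14455 genes tested, 1530 (10.6%) passed an adjusted p below 0.05 in limma, 751 (5.2%) higher and 779 (5.39%) lower with CM than with TGFb. Fold changes below are log2(value + 1) differences, CM minus TGFb, with their standard error from 3 against 3 libraries, and a gene is called higher or lower where its adjusted p was below 0.05. The median size of a called change was 0.57, and 346 genes differed by at least 1, 195 of them higher and 151 lower with CM. Of the 1530, 1500 had CM and TGFb libraries that did not overlap, a property that 3931 of all genes tested (27.2%) had. Without CM KO 1 the count was 485 higher and 574 lower. When each library was scaled to the same total, the median of all genes moved from 0.00 to 0.10, and the calls became 1241 higher and 491 lower, so that 71.65% of called genes were higher in place of 49.08%. Of the 1530 genes, 1242 were called in the same direction under that scaling. Counts for gene groups are set against the 5.2% and 5.39% of all genes. The 43 gene groups are hand-written lists of genes with a shared textbook role.

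The best-known feedback genes of the TGFb pathway, Smad7, Skil and Pmepa1, were lower with CM than with TGFb. Of 24 SMADs and feedback regulators, all tested, 0 were higher (0 at an unadjusted p below 0.05) and 8 (33.3%) were lower with CM, with a median of -0.28. The count was also 8 with equal totals (median -0.18) and 7 or 8 when any KO library was left out. Pmepa1 (chromosome 2, 173066251 to 173118326 on mm39), which encodes a membrane protein that sequesters SMADs, read 208, 286 and 282 with CM and 1163, 1419 and 1131 with TGFb. The TGFb mean was 4.78-fold higher and the groups lay far apart (-2.26 ± 0.17, limma adjusted p = 7.0e-11). With TNFa, the other cytokine of the series, Pmepa1 read 261, 332 and 329, which was close to the CM libraries. Smad7 (chromosome 18, 75500600 to 75529006), the inhibitory SMAD that blocks the type I receptor, read 382, 305 and 328 with CM, 1208, 1043 and 1122 with TGFb and 445, 379 and 397 with TNFa. The 3 TGFb libraries stood above the other 6 (-1.73 ± 0.17, limma adjusted p = 2.0e-08).

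Skil, a repressor bound to SMADs that is degraded and then re-made under TGFb, read 5299, 5060 and 5492 with CM and 8584, 9699 and 8261 with TGFb (-0.74 ± 0.08, limma adjusted p = 6.5e-08). Fst, which encodes the activin-binding protein follistatin, read 1420, 1396 and 1721 with CM and 3127, 3890 and 2796 with TGFb (-1.11 ± 0.12, limma adjusted p = 1.7e-07). Both genes had CM libraries in a narrow band below all 3 TGFb libraries. The other 4 genes called lower in this group were Ski (a paralog of Skil, -0.73 ± 0.13), Tgif1 (a SMAD corepressor, -0.56 ± 0.09), Id3 (a target of BMP signaling, -0.55 ± 0.14) and Smad2 (-0.44 ± 0.09), named after their values were seen.

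Among 28 ligands, latency proteins and receptors of the TGFb family, all tested, 1 was higher and 5 (17.9%) were lower with CM, with a median of -0.10 (0.00 with equal totals, where 3 were higher and 5 lower). Tgfbr1 (chromosome 4, 47353222 to 47414931), the type I receptor, read 5211, 5308 and 4789 with CM and 9432, 10420 and 9884 with TGFb, a level 1.94-fold higher with TGFb (-0.96 ± 0.08, limma adjusted p = 3.8e-10). Its TNFa libraries read 5063, 5395 and 5173, inside or close to the CM range. Tgfbr2, the type II receptor, went the other way without passing, at 1340, 1316 and 1586 with CM and 1035, 1131 and 1158 with TGFb (0.35 ± 0.14, limma adjusted p = 0.11), and passed with equal totals (0.45, adjusted p = 0.040). Acvr1, a type I receptor for BMPs and activins, was lower with CM (-0.84 ± 0.13, limma adjusted p = 3.4e-05), as was Inhba, which encodes a subunit of activin A (-0.65 ± 0.12, limma adjusted p = 4.6e-04). Ltbp3, a protein that holds TGFb in its latent form in the matrix, read 53.7, 53.4 and 42.3 with CM and 229, 247 and 175 with TGFb (-2.09 ± 0.39, limma adjusted p = 3.8e-04). The ligand gene Tgfb2 was lower (-0.71 ± 0.14, limma adjusted p = 0.0011), and the 1 higher gene, Tgfa, is a ligand of the EGF receptor despite its name (0.37 ± 0.10, limma adjusted p = 0.015) and was not called without TGFb KO 3. The ligand gene Tgfb1 itself read 123, 109.9 and 76.4 with CM and 99.8, 91.8 and 58.6 with TGFb, with overlapping groups and a difference of 0.31 ± 0.40 (95% interval -0.51 to 1.13).

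**Figure D1:**
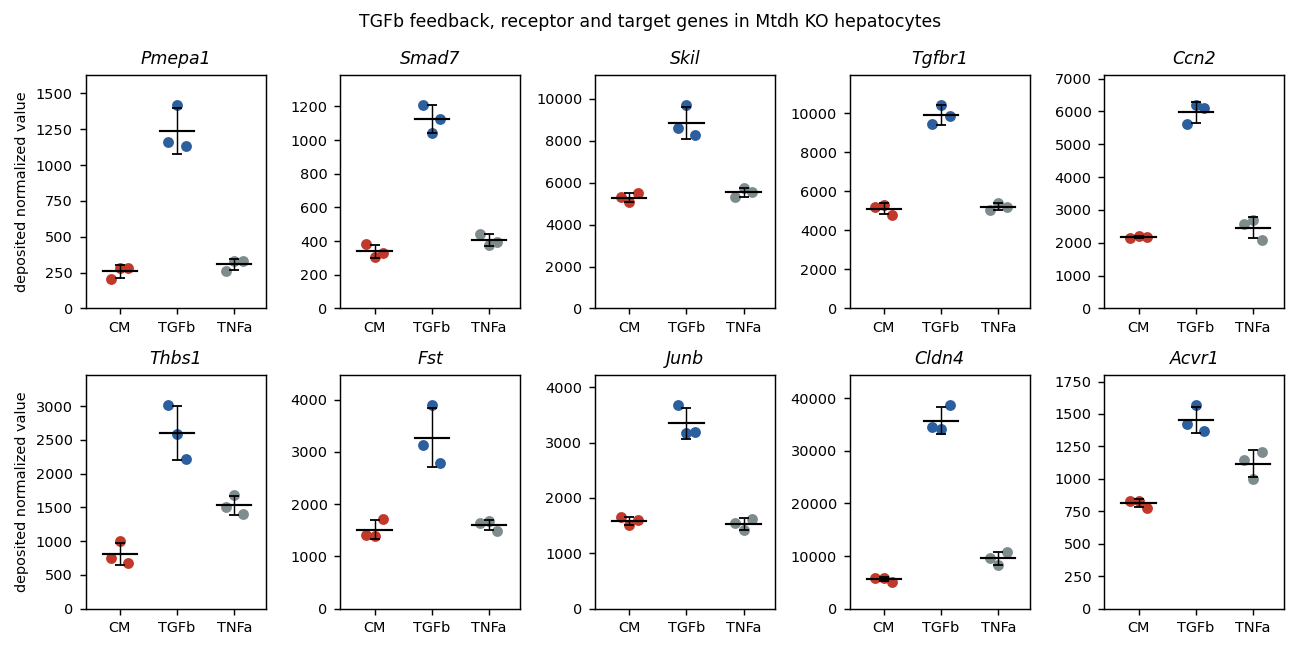
Deposited DESeq2-normalized values (vertical axis, linear and from 0) of 10 genes in the 3 CM, 3 TGFb and 3 TNFa libraries of Mtdh KO hepatocytes. Points are libraries, horizontal bars are means and vertical bars are SD; in each of the 10 genes all 3 TGFb libraries lie above all 3 CM libraries, and the TNFa libraries are close to CM in Pmepa1 and Tgfbr1 and between the others in Thbs1.

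Textbook target genes of TGFb did not move as a block. Of 37 listed, 34 were tested, 2 were higher and 8 (23.5%) lower with CM, with a median of -0.20 (4 higher, 6 lower and -0.10 with equal totals). Ccn2, a matricellular growth factor, read 2135, 2196 and 2173 with CM and 5609, 6193 and 6103 with TGFb, 2.75-fold higher with TGFb (-1.46 ± 0.11, limma adjusted p = 8.7e-11). Thbs1, which encodes the TGFb-activating protein thrombospondin, read 745, 997 and 684 with CM, 3012, 2584 and 2221 with TGFb and 1512, 1678 and 1407 with TNFa (-1.69 ± 0.14, limma adjusted p = 5.9e-10). For Thbs1 the TNFa libraries lay between the other treatments, whereas for Ccn2 they read 2561, 2703 and 2096, at the CM level. Junb, a subunit of the AP-1 transcription factor, read 1656, 1514 and 1605 with CM and 3672, 3169 and 3193 with TGFb (-1.07 ± 0.10, limma adjusted p = 2.6e-09). The other lower genes were Sphk1, a sphingosine kinase (-1.39 ± 0.28), the mesenchymal filament gene Vim (-0.56 ± 0.13), the cell cycle inhibitor Cdkn1a (-0.46 ± 0.10), the transcription factor Zeb1 (-0.33 ± 0.11) and the actin-binding tropomyosin Tpm1 (-0.32 ± 0.09).

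Tgfbi, a secreted matrix protein named for its induction by TGFb, was read at low values of 8.28, 10.3 and 21.6 with CM and 35.3, 27.3 and 77.8 with TGFb and did not pass (-1.70 ± 0.88, limma adjusted p = 0.25). The genes called higher with CM were Zeb2, a transcription factor of mesenchymal transition (1026, 1010 and 1077 with CM, 742, 643 and 497 with TGFb, 0.74 ± 0.15, limma adjusted p = 7.0e-04), and Hmga2, a chromatin protein named after its value was seen (0.52 ± 0.11).

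Matrix genes split. Of 35 listed, 30 were tested, 7 (23.3%) were higher and 3 lower with CM, and the 3 lower calls were lost when CM KO 3 was left out (6 higher and 0 lower) and fell to 1 without TGFb KO 3. The higher genes named here encode basement membrane and crosslinking proteins, but basement membrane genes were called on both sides. Nid1 (chromosome 13, 13612136 to 13686854), which encodes the basement membrane linker nidogen, read 18030, 17373 and 15442 with CM, 5411, 6368 and 5628 with TGFb and 17622, 18182 and 16335 with TNFa. CM and TNFa libraries overlapped and stood 2.92-fold (CM over TGFb means) above the TGFb libraries (1.55 ± 0.09, limma adjusted p = 5.6e-13). The neighbouring basement membrane collagen genes Col4a1 and Col4a2 were higher with CM by 0.79 ± 0.12 and 1.34 ± 0.27 (adjusted p = 3.3e-05 and 8.7e-04). Lox, a collagen crosslinking enzyme, read 3553, 2988 and 2580 with CM and 1945, 2371 and 1606 with TGFb (0.63 ± 0.13, limma adjusted p = 0.0017). The lower genes included fibronectin or Fn1 (-0.52 ± 0.13) and Col18a1, also a basement membrane collagen gene (-0.36 ± 0.09), both named after their values were seen. Col1a1, a fibrillar collagen made by stellate cells, was at 0 in 5 of the 6 libraries and at 3.40 in TGFb KO 2, so it was not tested, and Col3a1 read 11.7, 2.81 and 24.5 with CM and 50.1, 13.6 and 15.6 with TGFb.

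The largest differences in favour of TGFb were in genes that read near 0 or at low values with CM. Arc, an immediate-early gene best known from neurons, read 25.5, 14.99 and 10.8 with CM, 323, 345 and 457 with TGFb and 27.8, 5.44 and 24.5 with TNFa (-4.44 ± 0.58, limma adjusted p = 2.8e-06). Lmcd1, a LIM-domain transcriptional cofactor, read 41.3, 50.6 and 53.02 with CM and 790.2, 758 and 816 with TGFb (-4.01 ± 0.34, limma adjusted p = 6.4e-10). The 3 TGFb libraries were more than 100 in both genes and none of the CM libraries reached 100. Hr, a histone demethylase and nuclear receptor corepressor, differed by -3.91 ± 0.79, Mab21l4 by -3.89 ± 0.84, Psg22, a pregnancy-specific glycoprotein, by -3.40 ± 0.37, Vill, a villin-like actin regulator, by -3.19 ± 0.53 and Bex2 by -3.10 ± 0.53 (limma adjusted p between 7.2e-08 and 0.0019). Gja4, a gap junction connexin, differed by -4.19 ± 1.22 (adjusted p = 0.024), a call lost without CM KO 2 (-2.84, adjusted p = 0.17), without TGFb KO 1 (-4.03, 0.086) and without TGFb KO 3 (-3.92, 0.094). Sema7a, a semaphorin known as a TGFb target, differed by -4.26 ± 1.08 (adjusted p = 0.0083), and by -2.87 (adjusted p = 0.10) without CM KO 3. Chst2, a sulfotransferase, differed by -2.88 ± 0.88 (adjusted p = 0.031) and was lost without CM KO 3 (-1.79, 0.25) and without each of the 3 TGFb libraries (adjusted p = 0.068 to 0.086).

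Junction and ductal genes held some of the most distinct values. Cldn4 (chromosome 5, 134973973 to 134975788), a tight junction claudin that normal hepatocytes express little of, read 5890, 5829 and 5129 with CM, 34491, 34035 and 38606 with TGFb and 9569, 8362 and 10799 with TNFa. The TGFb mean was 6.36-fold the CM mean (-2.67 ± 0.09, limma adjusted p = 1.7e-18). Of 28 epithelial junction genes tested (30 listed), 3 were higher (1 without TGFb KO 1, and 5 with equal totals) and 5 lower with CM. Lower were also the adhesion proteins Cdh1, or E-cadherin (2162, 2437 and 2585 with CM, 3822, 3994 and 3987 with TGFb, -0.72 ± 0.11, limma adjusted p = 1.9e-05), and Dsg2, a desmosomal cadherin (-0.57 ± 0.08, limma adjusted p = 1.3e-05). The tight junction adaptor Cgn was higher with CM (0.55 ± 0.11, limma adjusted p = 7.5e-04).

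Of 25 ductal and dedifferentiation genes tested (28 listed), 3 were higher (1 without TGFb KO 1, and 5 with equal totals) and 6 (24%) lower with CM. Epcam, a surface marker of bile duct and progenitor cells, read 11.7, 22.5 and 35.3 with CM and 196, 154 and 233 with TGFb (-3.12 ± 0.50, limma adjusted p = 5.2e-05). Sox9, a ductal transcription factor, read 4981, 4581 and 4788 with CM and 7532, 9468 and 7170 with TGFb (-0.74 ± 0.13, limma adjusted p = 2.3e-04), and S100a6, a calcium-binding protein, 422, 527 and 504 and 1669, 1523 and 1548 (-1.71 ± 0.14, limma adjusted p = 4.5e-10). The CM libraries were below the TGFb libraries for all 3. Prom1, another progenitor marker, went the other way (835, 1017 and 926 with CM, 453, 564 and 643 with TGFb, 0.75 ± 0.14, limma adjusted p = 5.3e-04). The summed values of the bile duct marker group were 5323 to 5534 with CM and 7722 to 10029 with TGFb. Most of that sum was Sox9, and the group as a whole did not follow it. Of its 10 tested members 1 was higher and 2 lower, 7 lay on the CM side and the median was 0.82. The keratin Krt19 read 169.9, 349 and 223 with CM and 137, 134 and 135 with TGFb, on the CM side without passing (0.80 ± 0.36, limma adjusted p = 0.17). The part of bile duct cells in these values was not tested.

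On the other side, chemokines stood out among the genes higher with CM. Of 26 listed, 21 were tested, 9 (42.9%) were higher and 2 lower, with a median of 0.49. Leaving out any library gave 8 or 9 higher calls, and equal totals gave 9. Ccl2 (chromosome 11, 81926397 to 81928279), the main attractant of monocytes, read 2313, 2342 and 2671 with CM, 598, 698 and 354 with TGFb and 3933, 4036 and 3378 with TNFa. Its CM mean was 4.44-fold the TGFb mean (2.20 ± 0.17, limma adjusted p = 2.2e-10), and the TNFa libraries were higher still. The adjacent gene Ccl7, which also attracts monocytes, read 539, 419 and 593 with CM and 84.5, 118 and 55.04 with TGFb (2.63 ± 0.29, limma adjusted p = 1.0e-07). Cxcl1 (chromosome 5, 91039100 to 91040974), a neutrophil attractant, read 896, 859 and 933 with CM and 228, 388 and 358 with TGFb (1.50 ± 0.17, limma adjusted p = 1.4e-07). No CM library of these 3 genes overlapped a TGFb library. Cxcl5, another neutrophil attractant, read 136, 168 and 301 with CM and 9.29, 14.7 and 14.4 with TGFb (3.82 ± 0.63, limma adjusted p = 8.9e-05), and Cxcl2, of the same class and named after its values were seen, 508, 560.1 and 410.4 and 123, 149.6 and 166 (1.75 ± 0.22, limma adjusted p = 1.0e-06).

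Chemokines that macrophages are known to produce were in the same group. Ccl6 read 313, 334 and 213 with CM and 19.5, 3.40 and 45.5 with TGFb (4.13 ± 0.72, limma adjusted p = 1.9e-04). Ccl3 read 184, 124 and 99.2 with CM and 18.6, 9.07 and 31.1 with TGFb (2.84 ± 0.84, limma adjusted p = 0.027), a call that was lost without any of CM KO 1, 2 and 3 (adjusted p = 0.11, 0.065 and 0.053) or TGFb KO 1 and 2 (0.066 and 0.11). Beside them, the myeloid receptor genes Clec4n (2.52 ± 0.73, adjusted p = 0.023) and Pira1 (3.56 ± 1.08, adjusted p = 0.030) were higher with CM. Pira1 did not pass without CM KO 1, 2 or 3 (adjusted p = 0.067 to 0.10) or TGFb KO 2 (1.83, 0.26). Clec4n did not pass without CM KO 1, 2 or 3 or TGFb KO 1 (0.051 to 0.086), or without TGFb KO 3 (2.14, 0.11). Of 20 Kupffer cell and macrophage markers, 3 (Cd163, Slc40a1 and Itgam) were higher with CM and 0 lower (3 at an unadjusted p below 0.05), with a median of -0.15 and no marker at 0 in all 6 libraries. The scavenger receptor Cd163 read 71.5, 74.9 and 35.3 with CM and 0, 12.5 and 0 with TGFb (4.62 ± 0.83, limma adjusted p = 2.8e-04; 3.05 with a pseudocount of 5), and Itgam read 89.4, 143 and 99.2 and 39.9, 57.8 and 31.1 (1.36 ± 0.43, limma adjusted p = 0.038, and 0.060 to 0.16 without any of 5 single libraries). The list was split, with 9 of the 20 markers on the CM side, the 3 called ones among them. Clec4f leaned to TGFb without passing, at 162, 225 and 135 with CM and 313, 326 and 408 with TGFb. So did Lyz2, at 972, 878 and 1041 and 1290, 1158 and 1256. Leaning to CM without passing were C1qa (122, 157 and 171 with CM, 118, 47.6 and 94.5 with TGFb, 0.87 ± 0.53), Marco (0.49 ± 0.45) and Adgre1 (0.27 ± 0.22). The part of macrophages in the chemokine values was not tested.

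Only 2 of the tested chemokines were lower with CM. Cxcl12, a lymphocyte and stem cell attractant made by many liver cells, read 1278, 1222 and 1093 with CM, 2802, 2905 and 2794 with TGFb and 1041, 1039 and 1349 with TNFa (-1.24 ± 0.12, limma adjusted p = 9.7e-09), so the 3 TGFb libraries stood alone on the high side. Cxcl10, an interferon-induced attractant of T cells named after its values were seen, read 374, 524 and 563 with CM and 831, 680.1 and 854 with TGFb (-0.71 ± 0.20, limma adjusted p = 0.020), with TNFa at 846, 689.7 and 710.4. The lower calls numbered 1 without CM KO 1, TGFb KO 1 or TGFb KO 3.

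The promoters of Cxcl1 and Cxcl2, both higher with CM, are shown because each holds the NF-kappaB motif within the 250 bases before the start. They are taken from RefSeq on GRCm38.p6, a build other than the mm39 of the deposited table, at chr5:90891139-90891218 (+ strand) and chr5:90903767-90903846 (+ strand), written 5′ to 3′ along the gene with the motif in capitals. The motif begins 71 bases before the start in Cxcl1 and 97 in Cxcl2, and in each a further match overlaps it, shifted by 1 base. Of 11164 tested genes with a promoter in the RefSeq table, 1154 (10.34%) hold a match on either strand. Of the tested chemokines 14 have an entry, of which 5 hold it, and of those called higher 3 of 5, too few of the group for a comparison. A match describes letters and not binding.
Cxcl1: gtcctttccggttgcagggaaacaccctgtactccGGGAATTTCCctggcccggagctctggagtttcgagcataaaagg
Cxcl2: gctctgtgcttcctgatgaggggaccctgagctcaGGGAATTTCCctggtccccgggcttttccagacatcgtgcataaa

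**Figure D2:**
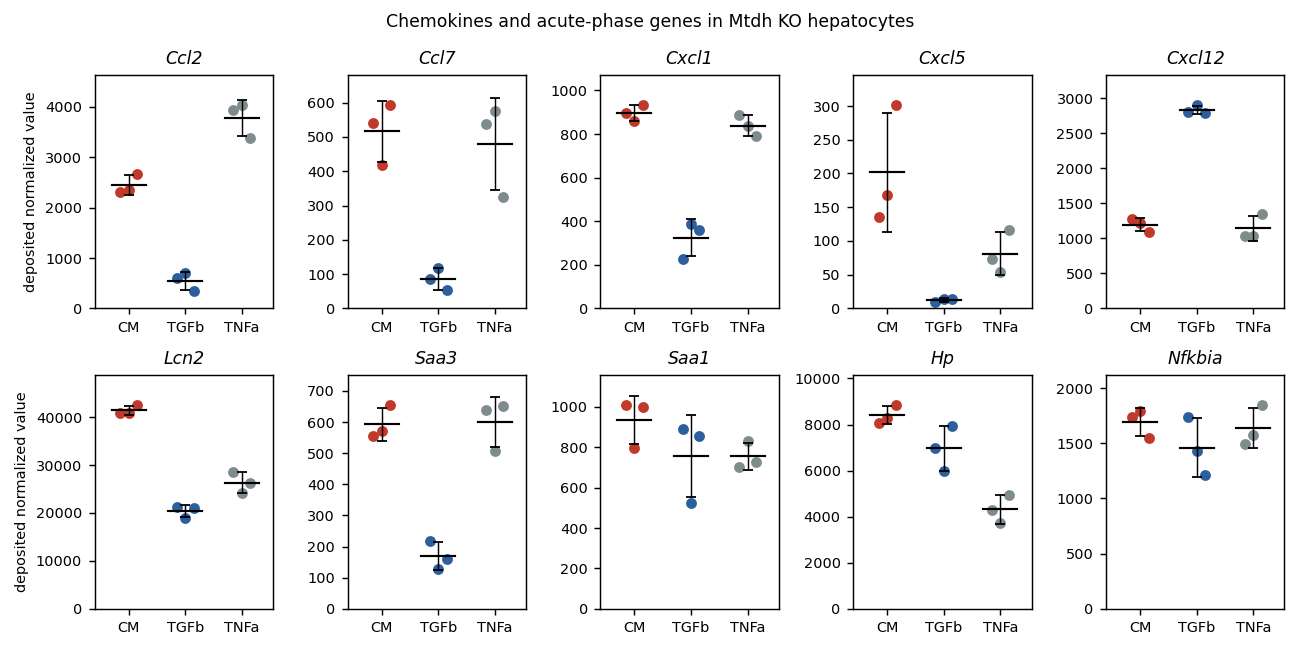
Deposited DESeq2-normalized values (vertical axis, linear and from 0) of 5 chemokines, 4 acute-phase genes and Nfkbia in the 3 CM, 3 TGFb and 3 TNFa libraries of Mtdh KO hepatocytes. Points are libraries, horizontal bars means and vertical bars SD; Ccl2, Ccl7, Cxcl1, Cxcl5, Lcn2 and Saa3 read higher with CM than with TGFb, Cxcl12 read lower, and Saa1 and Nfkbia overlapped.

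Acute-phase proteins, which the liver secretes under inflammation, were divided between the treatments. Of 29 tested (30 listed), 9 (31.03%) were higher and 4 (13.8%) lower with CM (12 and 3 with equal totals). Lcn2 (chromosome 2, 32274645 to 32278264), an iron-siderophore binding protein, read 40825, 40868 and 42459 with CM and 21256, 18859 and 21017 with TGFb, 2.03-fold higher with CM (1.02 ± 0.10, limma adjusted p = 9.5e-09). Saa3, a serum amyloid A, read 555, 571 and 654 with CM and 217, 128 and 160.3 with TGFb (1.84 ± 0.20, limma adjusted p = 7.2e-08). Neither gene had overlapping groups. Its relative Saa2 was higher with CM (0.90 ± 0.26, limma adjusted p = 0.022), but not without CM KO 3 (0.70, adjusted p = 0.15) or TGFb KO 2 (0.74, 0.097), and Saa1 read 1008, 798 and 999 with CM and 889.6, 523 and 854 with TGFb with overlapping groups (0.34 ± 0.17, limma adjusted p = 0.23). Reads of the Saa paralogs can be shared between them, so their values are uncertain.

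The pentraxin Apcs (0.89 ± 0.16, limma adjusted p = 2.6e-04) and the ferroxidase Cp (0.44 ± 0.09, limma adjusted p = 7.2e-04) were higher with CM. Haptoglobin (Hp) read 8081, 8301 and 8834 with CM and 6974, 5995 and 7925 with TGFb and did not pass (0.28 ± 0.11, limma adjusted p = 0.11), but did with equal totals (0.38, adjusted p = 0.027) and without TGFb KO 3 (0.38, 0.046). Orm2 (0.46 ± 0.21, limma adjusted p = 0.18) did not pass. Fibrinogen beta (Fgb) was level at 36848, 37454 and 37524 with CM and 36206, 41159 and 36695 with TGFb (-0.03 ± 0.08, adjusted p = 0.89, 95% interval -0.20 to 0.14; 0.07 with equal totals).

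Signaling genes upstream of these proteins were read as well. Of 30 genes of IL-6 and IL-1 receptors, STAT signaling and feedback, all tested, 0 were higher (5 at an unadjusted p below 0.05) and 6 (20%) lower with CM (3 and 6 with equal totals). Cish, a feedback inhibitor of STAT5, read 594, 626 and 577 with CM and 1622, 1211 and 1390 with TGFb (-1.22 ± 0.15, limma adjusted p = 7.1e-07). Lifr, the LIF receptor (-0.72 ± 0.09, limma adjusted p = 1.7e-06), and Ptpn2, a phosphatase of JAK and STAT proteins (-0.74 ± 0.12, limma adjusted p = 6.1e-05), were also lower. Socs3, the feedback inhibitor that IL-6 induces, was read at 126, 73.1 and 84.4 with CM and 165, 97.5 and 87.4 with TGFb (-0.28 ± 0.38, adjusted p = 0.72, 95% interval -1.05 to 0.49), a range too wide to tell a moderate difference from none.

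Of 29 NF-kappaB subunits, kinases and inhibitors, all tested, 3 were higher and 1 lower with CM, a share of 13.8% against 10.6% of all genes. The 3 were the kinase subunits Ikbkb (0.44 ± 0.14) and Ikbkg (0.31 ± 0.08) and the inhibitor Tnfaip3 (0.31 ± 0.10), and the 1 was Birc2 (-0.47 ± 0.15). None of the 4 calls held in every fit with a library left out, and 0 genes were higher without CM KO 1, CM KO 2 or TGFb KO 3 (1 without CM KO 3). Nfkbia, the feedback inhibitor that NF-kappaB induces, read 1735, 1790 and 1548 with CM and 1742, 1428 and 1216 with TGFb and did not pass (0.22 ± 0.13, limma adjusted p = 0.31). Of 29 TNF-induced effectors tested (31 listed), 4 were higher and 2 lower (8 and 2 with equal totals). Tnfaip2 (0.92 ± 0.16, limma adjusted p = 1.1e-04) and the macrophage growth factor Csf1 (1312, 1385 and 1034 with CM, 775, 791 and 868 with TGFb, 0.61 ± 0.13, limma adjusted p = 0.0017) were higher. Tnfrsf1b, a TNF receptor, was lower (-0.44 ± 0.09, limma adjusted p = 0.0018). Icam1 (0.41 ± 0.15, limma adjusted p = 0.073) and Sod2 (0.17 ± 0.09, limma adjusted p = 0.29) did not pass, and both did with equal totals (0.51 and 0.27, adjusted p = 0.024 and 0.040).

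Interferon-stimulated genes, the antiviral genes switched on by interferon receptors, leaned to CM. Of 39, all tested, 15 (38.5%) were higher and 1 lower, with a median of 0.52 (22 higher, 0 lower and 0.62 with equal totals). Between 10 and 17 were higher when a library was left out, and the 1 lower call was lost without CM KO 2 or 3 or TGFb KO 1 or 3. Parp14, an ADP-ribosyltransferase, read 2121, 2052 and 2012 with CM, 1048, 1377 and 1151 with TGFb and 3919, 3302 and 3704 with TNFa (0.80 ± 0.11, limma adjusted p = 6.9e-06). Rigi, the cytosolic sensor of viral RNA, read 1453, 1588 and 1339 with CM and 919, 805 and 847 with TGFb (0.77 ± 0.12, limma adjusted p = 6.9e-05). Parp12 read 1561, 1384 and 1562 with CM and 992, 889.8 and 854 with TGFb (0.72 ± 0.11, limma adjusted p = 2.5e-05). The groups did not overlap in any of the 3, and the TNFa libraries were at the CM level in Parp12 and highest in Parp14. Usp18, which removes ISG15 from proteins and restrains the interferon receptor, was higher too (0.61 ± 0.11, limma adjusted p = 2.0e-04). The 1 lower gene was Oasl1 (-0.35 ± 0.11, adjusted p = 0.038), named after its value was seen. Members in common use as readouts did not all pass, with Ifit1 at 2147, 1929 and 2050 with CM and 2240, 2087 and 1380 with TGFb (0.13 ± 0.17, limma adjusted p = 0.71).

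The promoter pieces of Stat2, Gbp7 and Rsad2 are shown because these 3 called genes hold the interferon-stimulated response element searched (GAAA, 2 bases of any kind and GAAA, on both strands), which 362 of 11164 promoters (3.24%) hold. Stat2 encodes the interferon-activated transcription factor, Gbp7 a guanylate-binding protein and Rsad2 viperin, and they were named after their values were seen. Stat2 differed by 0.89 ± 0.16, Gbp7 by 0.60 ± 0.17 and Rsad2 by 0.69 ± 0.20 (limma adjusted p = 2.8e-04, 0.016 and 0.019). On GRCm38.p6 the pieces lie at chr10:128270248-128270320 (+ strand), chr3:142530248-142530327 (+ strand) and chr12:26456528-26456607 (- strand), with the motif, here as its reverse complement, in capitals 222, 53 and 120 bases before the start. Of the tested members with a promoter in the RefSeq table, 15 of 28 hold the motif, and 3 of the 9 called higher do, so most members that hold it were not called. With fewer than 80% of the group in that table, a comparison of these shares is void.
Stat2: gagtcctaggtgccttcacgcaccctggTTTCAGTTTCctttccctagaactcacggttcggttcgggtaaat
Gbp7: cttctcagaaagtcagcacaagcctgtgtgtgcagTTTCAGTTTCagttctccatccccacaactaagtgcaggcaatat
Rsad2: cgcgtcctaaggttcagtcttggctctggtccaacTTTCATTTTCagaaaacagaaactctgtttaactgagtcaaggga

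The genes with the largest rise toward CM were, beside Ccl6, Cxcl5, Ccl3 and Ccl7, of mixed kind. Ivl (chromosome 3, 92478209 to 92481042), which encodes involucrin of the cornified envelope of skin, and Crct1 (chromosome 3, 92921512 to 92922994), a gene of the same epidermal differentiation complex, were both high with CM. Ivl read 290.3, 225 and 338 with CM, 53.9, 19.3 and 8.38 with TGFb and 120.2, 136 and 92.02 with TNFa (3.69 ± 0.44, limma adjusted p = 4.5e-07). Crct1 read 381, 401 and 391 with CM, 19.5, 39.7 and 32.3 with TGFb and 186, 200.3 and 135 with TNFa (3.69 ± 0.40, limma adjusted p = 7.2e-08). For both, the CM libraries were highest and TNFa libraries in the middle. Hkdc1, a hexokinase-like enzyme, read 140.3, 174 and 121 with CM and 37.1, 31.7 and 10.8 with TGFb (2.56 ± 0.58, limma adjusted p = 0.0030). Arg2, the mitochondrial arginase, differed by 2.45 ± 0.61 (adjusted p = 0.0072) and by 1.70 (0.080) without TGFb KO 3. Heph, a ferroxidase, differed by 3.04 ± 0.88 (adjusted p = 0.022) but by 1.84 (0.20) without TGFb KO 3, and was also lost without CM KO 1 (0.078) and CM KO 2 (0.068). Evi2 differed by 2.47 ± 0.62 (adjusted p = 0.0080), lost without CM KO 3 (1.97, 0.081) and TGFb KO 3 (1.92, 0.070).

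Cholesterol synthesis and uptake was the gene group with the highest share of calls. Of 30 genes, all tested, 20 (66.7%) were higher and 1 lower with CM, with a median of 0.40. Between 17 and 20 were higher when a library was left out, and 21 were higher and 0 lower with equal totals (median 0.50). Lss (chromosome 10, 76367422 to 76392972), which closes the sterol ring, read 3016, 3034 and 2812 with CM, 1450, 1192 and 1329 with TGFb and 1771, 1326 and 1724 with TNFa. CM stood 2.23-fold above TGFb (1.16 ± 0.12, limma adjusted p = 4.3e-08), and TNFa libraries were close to TGFb. Fdps, which makes farnesyl diphosphate, read 8732, 9340 and 8111 with CM and 5330, 3999 and 4551 with TGFb (0.92 ± 0.11, limma adjusted p = 2.0e-07). Cyp51, the lanosterol demethylase, read 7818, 7895 and 7509 with CM and 4901, 4366 and 4442 with TGFb (0.76 ± 0.09, limma adjusted p = 1.9e-07). None of these 3 genes had overlapping libraries. The 1 lower gene was Ebp, a sterol isomerase (-0.45 ± 0.15, adjusted p = 0.049), which did not pass with equal totals, and Ebp and Hmgcs1 were named after their values were seen.

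Hmgcs1, the synthase that starts the pathway, was higher with CM (29128, 30164 and 26545 with CM, 17775, 18883 and 18004 with TGFb, 0.65 ± 0.09, limma adjusted p = 3.3e-06). It is the 1 called gene of the group whose promoter in the RefSeq table holds the sterol response element searched (TCACNCCAC, both strands), a motif found in 147 of 11164 promoters (1.32%). Of 22 tested members with an entry there, 15 of them called higher, 1 holds it, and with fewer than 80% of the group in the table a comparison of shares is void. The piece lies at chr13:119690179-119690257 (+ strand) on GRCm38.p6, with the motif in capitals 137 bases before the start.
Hmgcs1: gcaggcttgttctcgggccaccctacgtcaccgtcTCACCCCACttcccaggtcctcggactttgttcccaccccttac

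**Figure D3:**
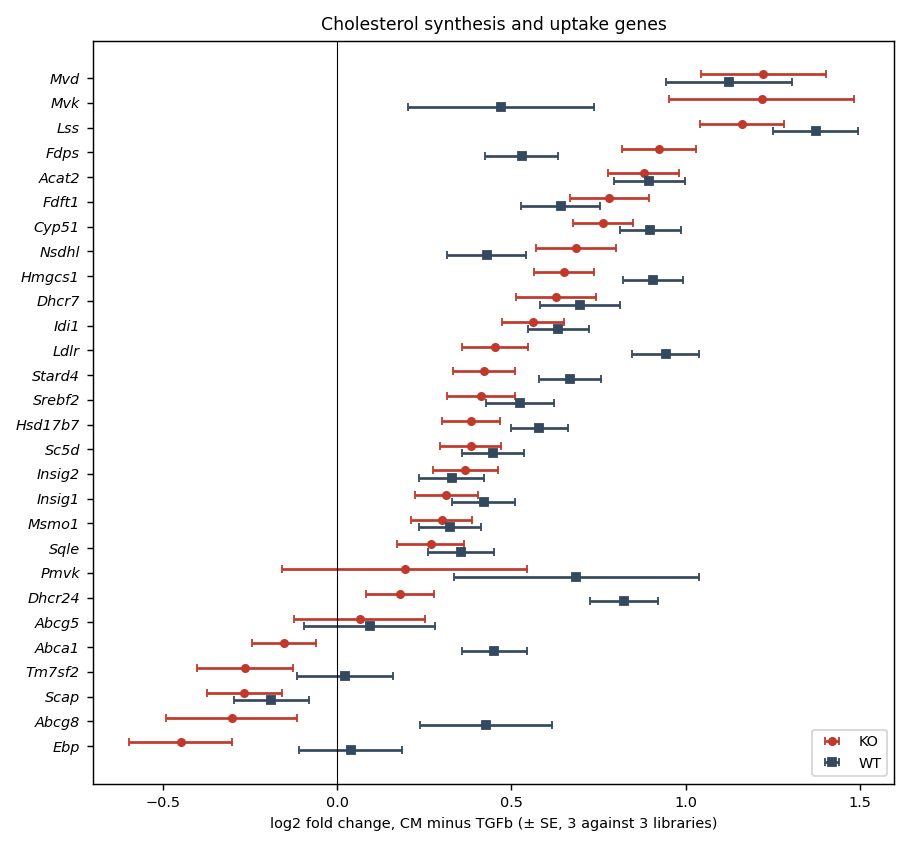
Log2 fold change, CM minus TGFb, of 28 cholesterol synthesis and uptake genes (rows) in KO (circles) and WT hepatocytes (squares), each from 3 against 3 libraries, with bars for the standard error. Of those drawn, 19 were called higher in KO, and 18 of these were called higher in WT as well.

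Fatty acid and triglyceride synthesis, which shares SREBP control with cholesterol, showed fewer calls. Of 27 genes, all tested, 6 (22.2%) were higher and 2 lower with CM, and the median was -0.02 (0.08 with equal totals). Elovl6, an elongase of saturated fatty acids, read 4154, 4422 and 4127 with CM, 2000, 2084 and 1809 with TGFb and 3744, 4471 and 4177 with TNFa (1.11 ± 0.10, limma adjusted p = 4.3e-09). The acetyl-CoA carboxylases Acacb (1366, 1392 and 1334 with CM, 697, 606 and 809 with TGFb, 0.96 ± 0.14, limma adjusted p = 1.2e-05) and Acaca (3284, 2900 and 2942 with CM, 2067, 2338 and 2035 with TGFb, 0.50 ± 0.10, limma adjusted p = 7.7e-04) were higher too. Fads2, a desaturase of polyunsaturated fatty acids, was lower with CM (-0.38 ± 0.09, limma adjusted p = 0.0040). Plin2, which coats lipid droplets and was listed with the PPARalpha targets and not in this group, read 6000, 6584 and 5896 with CM and 4226, 4072 and 4363 with TGFb (0.54 ± 0.09, limma adjusted p = 7.9e-05).

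Antioxidant genes under NRF2 control held more higher than lower calls with CM. Of 25 tested (26 listed), 8 (32%) were higher and 1 lower, with a median of 0.28 (11 and 1 with equal totals, 6 to 8 higher when a library was left out, and 0 lower without CM KO 3, TGFb KO 1 or TGFb KO 3). Gclc (chromosome 9, 77661817 to 77701767), the catalytic subunit of the first step of glutathione synthesis, read 31552, 31408 and 30267 with CM, 14390, 16076 and 12585 with TGFb and 38674, 43180 and 36492 with TNFa. CM was 2.17-fold above TGFb (1.12 ± 0.09, limma adjusted p = 3.5e-10), and TNFa read highest. Slc7a11, the cystine importer, read 11765, 11813 and 11533 with CM and 3974, 6214 and 4743 with TGFb (1.26 ± 0.11, limma adjusted p = 1.2e-09). Txnrd1, thioredoxin reductase, read 14808, 14742 and 14943 with CM and 8653, 8198 and 8349 with TGFb (0.82 ± 0.08, limma adjusted p = 4.8e-09), and Pgd, of the pentose phosphate pathway that supplies NADPH, was higher (0.94 ± 0.09, limma adjusted p = 4.4e-09). All 4 had separate groups. Hmox1, heme oxygenase, another target of NRF2, read 44299, 44084 and 42321 with CM and 42826, 41753 and 44132 with TGFb and overlapped (0.02 ± 0.08, adjusted p = 0.91, 95% interval -0.14 to 0.19). Gsta1 (1.82 ± 0.25) and the Gsta-like gene Gm3776 (872, 938 and 650.0 with CM, 11.5, 51.6 and 57.7 with TGFb, 4.58 ± 0.40, limma adjusted p = 1.2e-09), both named after their values were seen, are near-identical paralogs, so the split of reads between them is uncertain.

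Of 21 genes of iron handling, all tested, 6 were higher and 4 lower (Smad7 among the latter), but 1 was lower without TGFb KO 3 and 2 without CM KO 3 or with equal totals. Slc40a1, the iron exporter ferroportin, read 1868, 2079 and 2287 with CM, 768, 795 and 846 with TGFb and 2808, 2731 and 2627 with TNFa (1.37 ± 0.11, limma adjusted p = 2.4e-10). Kupffer cells express it as well. Fth1, the ferritin heavy chain that stores iron, read 39020, 36694 and 44159 with CM and 23488, 23812 and 26874 with TGFb (0.69 ± 0.10, limma adjusted p = 1.2e-05).

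Among products and metabolic enzymes of the differentiated hepatocyte, lower calls with CM outnumbered higher ones, and most members did not pass. These counts moved with scaling and with single libraries. The share of values taken by albumin was lower with CM (above), but its gene Alb did not pass (-0.32 ± 0.19, limma adjusted p = 0.33). Of 35 hepatocyte products, all tested, 0 were higher (0 at an unadjusted p below 0.05) and 9 (25.7%) lower, with a median of -0.21. With equal totals 5 were lower (median -0.11), with quantile normalization 4, and without CM KO 1, 2, 3 and TGFb KO 1, 2, 3 in turn 7, 8, 6, 5, 11 and 6 were. Asgr2, a subunit of the asialoglycoprotein receptor, read 2197, 2219 and 2053 with CM and 3776, 3100 and 3128 with TGFb (-0.62 ± 0.11, limma adjusted p = 2.6e-04). Ttr, transthyretin, read 35596, 37043 and 36195 with CM and 71129, 41640 and 58730 with TGFb, a wide spread among the TGFb libraries (-0.62 ± 0.13, limma adjusted p = 0.0019). Ahsg, the secreted protein fetuin-A, was lower (-0.49 ± 0.10, limma adjusted p = 6.7e-04), but not with quantile normalization (-0.23, adjusted p = 0.16). The TNFa libraries read lower than both treatments, with Asgr2 at 1414, 1401 and 1396 and Ttr at 24527, 19294 and 27556.

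Pericentral genes, which hepatocytes near the central vein express under Wnt signals, had 11 of 21 tested (23 listed, 52.4%) lower with CM and 0 higher (0 at an unadjusted p below 0.05). Their median was -0.36 (6 lower and -0.26 with equal totals), and the lower count was 8, 7, 6, 6, 8 and 9 without each KO library in the same order. Oat, an ornithine aminotransferase, read 5053, 4959 and 4127 with CM and 6678, 5896 and 7129 with TGFb (-0.48 ± 0.11, limma adjusted p = 0.0024). Gulo, the last enzyme of vitamin C synthesis, read 3615, 3747 and 3194 with CM and 5227, 4467 and 4841 with TGFb (-0.46 ± 0.10, limma adjusted p = 0.0018). The cytochrome Cyp1a2 was lower as well (-0.41 ± 0.10, limma adjusted p = 0.0048), while the call of Cyp2e1 (-0.45 ± 0.09) was lost with quantile normalization (-0.10, adjusted p = 0.60). Of 21 periportal genes, all tested, 4 were lower and 0 higher (1 at an unadjusted p below 0.05). They included Hsd17b13, a lipid droplet enzyme (-0.57 ± 0.13, limma adjusted p = 0.0029), and Pigr, the receptor that carries IgA into bile (-0.48 ± 0.10, limma adjusted p = 0.0016).

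Of 41 enzymes of drug metabolism tested (42 listed), 2 were higher (1 when any KO library other than TGFb KO 1 was left out) and 9 (21.95%) lower (5 with equal totals, and 6, 7, 3, 2, 9 and 5 without each library in that order). Gstp1, a glutathione transferase, was higher with CM (3304, 3301 and 3049 with CM, 2280, 1779 and 2320 with TGFb, 0.61 ± 0.12, limma adjusted p = 7.5e-04). Of 30 bile acid genes tested (31 listed), 1 was higher and 7 lower (3 with equal totals, and 4, 6, 2, 4, 7 and 4 without each library). The higher gene was Abcc4, the exporter of bile acids back to blood, at 755, 766 and 715 with CM, 248, 269.8 and 373 with TGFb and 1094, 1069 and 1097 with TNFa (1.35 ± 0.16, limma adjusted p = 6.6e-07). Abcb11, the bile salt export pump toward bile, was lower, at 5555, 5832 and 4656 with CM and 7476, 6975 and 7171 with TGFb (-0.44 ± 0.10, limma adjusted p = 0.0026).

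Of 31 fatty acid oxidation enzymes, all tested, 0 were higher (2 at an unadjusted p below 0.05) and 7 (22.6%) lower with CM, 4 with equal totals (1 higher) and 2, 6, 3, 3, 5 and 3 without each library. Hadh, a mitochondrial hydroxyacyl-CoA dehydrogenase, read 8808, 9062 and 8243 with CM and 12062, 11948 and 11749 with TGFb (-0.45 ± 0.09, limma adjusted p = 5.7e-04). Of 26 PPARalpha targets and ketogenesis genes, all tested, 1 was higher (Plin2, above) and 4 (15.4%) lower with CM, with a median of -0.11. The lower count was 2 to 4 when a library was left out. Lower were Slc27a2, a fatty acid transporter of this group (-0.54 ± 0.10, limma adjusted p = 2.1e-04), and Cyp4a14, a PPARalpha-driven hydroxylase (-0.51 ± 0.09, limma adjusted p = 2.2e-04), among others. Of 35 complement and coagulation factors tested (36 listed), 0 were higher (0 at an unadjusted p below 0.05) and 8 lower (3 with equal totals, and 6, 7, 3, 5, 6 and 5 without each library), led by C4b (23776, 26495 and 23153 with CM, 35685, 32299 and 39219 with TGFb, -0.54 ± 0.09, limma adjusted p = 1.6e-04). C3, the central complement protein, was lower (-0.52 ± 0.12, limma adjusted p = 0.0029), but not with quantile normalization (-0.21, adjusted p = 0.26). None of 32 nuclear-encoded respiratory chain genes and none of 13 mitochondrially encoded genes passed in limma (at an unadjusted p below 0.05, 1 higher and 1 lower, and 0 and 1). At the transcription factor level, Foxa2 was higher with CM (272, 251 and 142 with CM, 56.6, 63.5 and 74.2 with TGFb, 1.71 ± 0.31, limma adjusted p = 3.3e-04) and Foxa3 lower (833, 909 and 734 with CM, 1367, 1343 and 1777 with TGFb, -0.85 ± 0.14, limma adjusted p = 6.1e-05). Both are pioneer factors of the liver lineage, and Gata6 was the 1 other of 30 that passed (-0.76 ± 0.18, limma adjusted p = 0.0053).

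**Figure D4:**
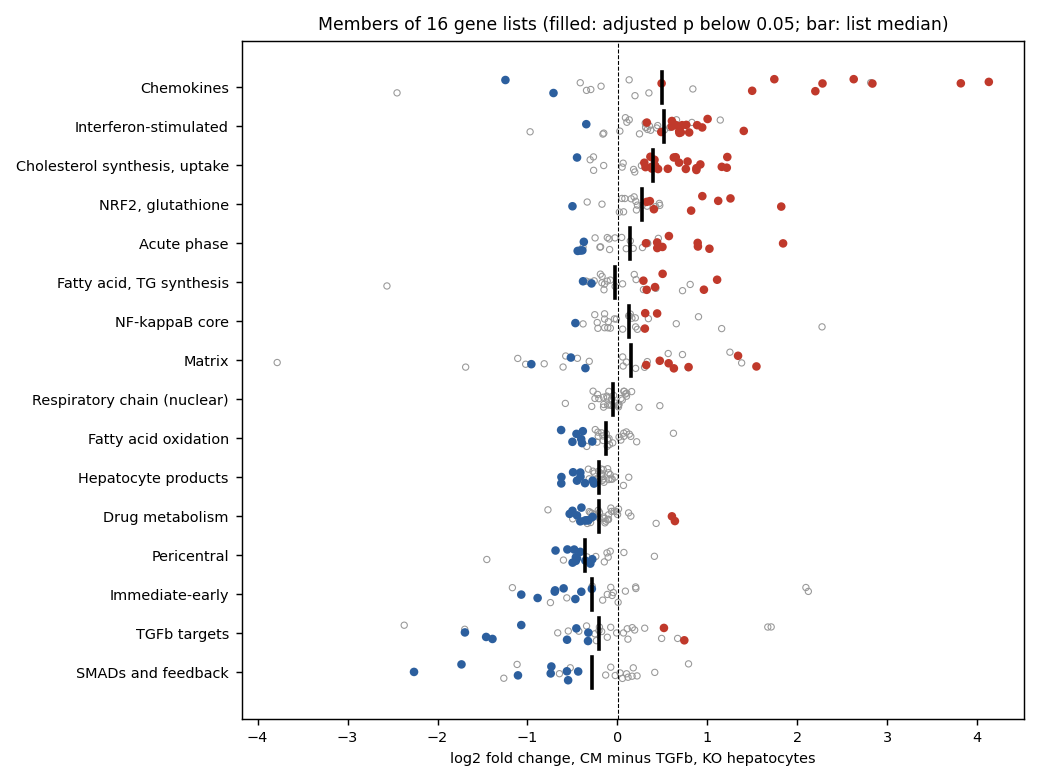
Log2 fold change, CM minus TGFb in KO hepatocytes (horizontal axis), of each tested member of 16 gene groups (rows). Filled points passed an adjusted p below 0.05 (right of 0 higher with CM, left of 0 higher with TGFb), open points did not, the thick bars are medians and the dashed line is the median of all genes; chemokines, interferon-stimulated and cholesterol genes have their medians to the right (0.49, 0.52 and 0.40).

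The same contrast in WT hepatocytes shares no library with the KO contrast. The summed Kupffer cell markers were 4913 to 6185 in these 6 WT libraries, below the 9400 to 10933 of the 6 KO libraries, and the part of macrophages in the differences between genotypes was not tested. In WT 1712 genes (11.8%) passed, 832 higher (5.76%) and 880 lower (6.09%) with CM. Called in both genotypes were 754 genes, 49.28% of the KO calls and 44.04% of the WT calls. Of these, 747 had the same direction and 7 the opposite one, and 1381 of the 1530 genes called in KO (90.26%) had the same sign in WT. Over all genes tested, called or not, the log2 differences in KO and WT correlated at 0.33 (Pearson). For some of the genes above, Pmepa1 differed by -2.79 ± 0.17 in WT, Smad7 by -1.82 ± 0.17, Ccn2 by -1.48 ± 0.11, Ccl2 by 2.26 ± 0.17, Lcn2 by 0.89 ± 0.10, Lss by 1.37 ± 0.12 and Nid1 by 1.45 ± 0.09. Gene groups repeated unequally. Called higher in WT too were 19 of 20 cholesterol genes and 8 of 9 chemokines called higher in KO. Of those called lower in KO, 7 of 8 SMADs and feedback regulators were called lower in WT. The same held for 4 of 9 hepatocyte products, 3 of 11 pericentral and 2 of 7 fatty acid oxidation genes. It held for 2 of 8 complement and coagulation factors and 1 of 7 bile acid genes.

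A test of the difference itself, KO minus WT, called 71 genes (0.491%), 35 higher (0.242%) and 36 lower (0.249%). The count depended on single libraries. It was 27, 31 and 16 without CM KO 1, 2 and 3, 40, 78 and 20 without TGFb KO 1, 2 and 3, 20, 43 and 237 without CM WT 1, 2 and 3, and 21, 29 and 15 without TGFb WT 1, 2 and 3. The 10 genes with the smallest p-values and a mean of at least 50 were called in all 12 of these fits.

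Among genes higher with TGFb in WT, Cldn4, Tgfbr1 and Clic4 differed less between treatments in KO. Cldn4 differed by -2.67 ± 0.09 in KO and -3.74 ± 0.09 in WT, where it read 2785, 2395 and 2689 with CM and 33084, 34030 and 37676 with TGFb. The TGFb libraries of both genotypes overlapped, and the CM libraries were lower in WT. Tgfbr1 differed by -0.96 ± 0.08 in KO and -1.66 ± 0.08 in WT (6142, 5353 and 5709 with CM and 17758, 17895 and 18811 with TGFb). Clic4, a chloride channel protein known to respond to TGFb, read 25202, 25752 and 24942 with CM and 32448, 38335 and 35016 with TGFb in KO and 17946, 17109 and 19546 and 39659, 42388 and 45020 in WT. Lox went in opposite directions, 0.63 ± 0.13 in KO and -0.62 ± 0.13 in WT, where it read 3288, 3355 and 4724 with CM and 5190, 5668 and 6366 with TGFb. In KO its CM libraries were above and in WT below the TGFb libraries.

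Hmox1 was level in KO and lower with CM in WT (-0.64 ± 0.08). Slc7a2, the arginine importer, differed by 0.18 ± 0.08 in KO and 1.12 ± 0.08 in WT (12254, 10283 and 10481 with CM and 4846, 4793 and 5516 with TGFb). Slc39a14, an importer of zinc and iron, differed by -0.16 ± 0.08 in KO and 0.54 ± 0.08 in WT, and Ep400, a chromatin remodeling ATPase, by -0.19 ± 0.09 and 0.57 ± 0.09. None of these 3 passed in KO, although Slc7a2 did with equal totals (0.28, limma adjusted p = 0.018) and quantile normalization (0.27, 0.021), and each was higher with CM in WT. Aldh1a1, a retinal dehydrogenase, was lower with CM in KO (-0.28 ± 0.09, limma adjusted p = 0.036, lost with equal totals, with quantile normalization, with just the groups compared and without CM KO 1, CM KO 3 or TGFb KO 1) and higher in WT (0.45 ± 0.09, 5.5e-04). Nt5dc3 read 3906, 4128 and 4407 with CM and 7235, 7465 and 8372 with TGFb in KO (-0.89 ± 0.09) and 4831, 4660 and 4225 and 5009, 5061 and 4439 in WT (-0.08 ± 0.09).

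**Figure D5:**
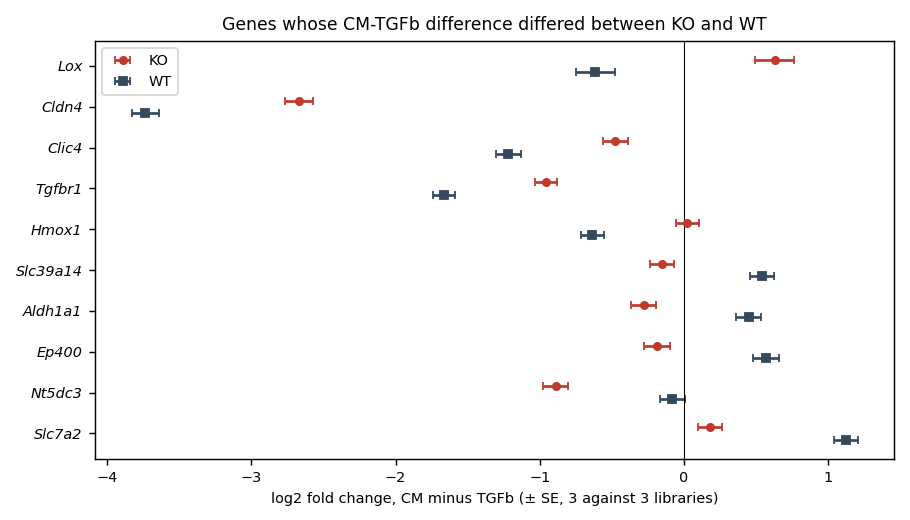
Log2 fold change, CM minus TGFb, in KO (circles) and WT hepatocytes (squares), with bars for the standard error from 3 against 3 libraries, for the 10 genes with the smallest p-values in the test of KO minus WT. Lox and Aldh1a1, called in both genotypes, lie on opposite sides of 0, Cldn4, Clic4 and Tgfbr1 lie to the left in both genotypes and farther in WT, and Slc7a2 lies farther to the right in WT.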

How the data were processed

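RNA of mouse hepatocytes was sequenced in 18 libraries, 3 for each of 6 groups. Per the labels' protocols, ribosomal RNA was removed with a QIAseq FastSelect kit, and libraries were made with the PrepX protocol. The authors deposited a table with 1 normalized signal for each gene in each library; the name the authors gave it says that DESeq2 did the scaling. The submitters' processing notes list STAR 2.7.8a, Partek and DESeq2 and the build mm39, all by the authors; the order, the settings and the strand of counting are not given. Low values were mostly but not always whole multiples of 1 step per library (within 0.05 for 80.2% to 84.0% of them), so whole reads were not recovered, and depth was estimated as the sum divided by that step (19400000 to 35600000 reads).

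The log2 of each value plus 1 was taken. Genes that reached 10 in 3 or more libraries were fitted with limma-trend (limma 3.58.1, R 4.3.3) as 6 group means over the 18 libraries with no block (12 residual, 17 prior degrees of freedom), with Benjamini-Hochberg adjustment over all genes tested. Contrasts were CM minus TGFb in KO, in WT, and their difference. The design text speaks of biological replicates but not of separate mice, so p-values measure the spread between libraries, which may be technical. The script was tested on simulated data.

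Named genes were up to 12 on each side with the largest called change, a mean of at least 50 over the 6 KO libraries and groups that did not overlap, up to 4 called members per gene group by p-value, fixed TGFb, IL-6 and NF-kappaB readouts, up to 10 genes of the difference with a mean of at least 50, and Mtdh. Unnamed gene models were left out of the first, and the text leaves out some of the rest. Some items under the rule are not reported here. Genes outside the rule were chosen after their values were seen. Members, groups and rules were chosen with earlier results of these data known. Where 2 genes had 1 symbol (11 symbols), groups use the row with the higher mean. Alternatives were pseudocounts of 0.5 and 5, no filter, a minimum mean of 50, rescaling by medians of ratios, equal totals, quantile normalization, fitting just the groups compared, a block for the replicate number, library weights and leaving out each library. Tables and figures used Python 3.11.15, pandas 2.3.3, NumPy 2.4.6 and matplotlib 3.10.9.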

Additional observations from a re-analysis of the deposited data

Results flagged for a closer look

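The difference between CM and TGFb was itself different in KO and WT hepatocytes for 13 of the genes named, by limma's test of KO minus WT with adjustment over 14455 genes. A positive value means that CM minus TGFb was higher in KO. It was positive for Lox (1.24 ± 0.19, adjusted p = 0.0014), Cldn4 (1.07 ± 0.13, 7.8e-05), Clic4 (0.74 ± 0.12, 0.0025), Tgfbr1 (0.71 ± 0.11, 0.0016) and Hmox1 (0.66 ± 0.11, 0.0036). It was negative for Slc7a2 (-0.94 ± 0.12, adjusted p = 7.8e-05), Nt5dc3 (-0.81 ± 0.12, 0.0014), Ep400 (-0.76 ± 0.13, 0.0032), Aldh1a1 (-0.73 ± 0.12, 0.0032) and Slc39a14 (-0.70 ± 0.12, 0.0032).

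A further 3 genes passed the same limma test with calls that depended on the libraries. Slc25a15, the mitochondrial ornithine carrier of the urea cycle, differed by -0.59 ± 0.12 (adjusted p = 0.022) and was called in 7 of 12 fits that left out a library. Gclc differed by 0.62 ± 0.13 (adjusted p = 0.023, 5 of 12), with 25575, 21423 and 23791 in the CM WT and 15892, 16597 and 17339 in the TGFb WT libraries. Gm3776 differed by 2.60 ± 0.56 (adjusted p = 0.028, 6 of 12), read 368, 586 and 668 in the CM WT and 90.5, 289 and 87.7 in the TGFb WT libraries, and shares reads with other Gsta genes.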

How the results depend on the processing

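For CM against TGFb in KO, equal totals gave 1241 genes higher and 491 lower in place of 751 and 779, because the summed values of the TGFb libraries were larger. With a library left out, 485 to 797 were higher and 533 to 708 lower. In WT, fitting just the groups compared gave 582 lower in place of 880. For KO minus WT, 71 genes became 47 (21 higher) with no filter and 43 (19 higher) with the groups compared, and 15 to 237 with a library left out (8 to 164 higher, 7 to 73 lower). The cause of the changes by library was not tested. The other counts over all genes moved by less than 1.5 times. Many group counts moved more and are given beside the groups. Of 159 named genes called in KO, 121 were called under each alternative, and no named call changed its sign.

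CM and TGFb libraries of the same number did not deviate together (correlations of 0.02, -0.02 and 0.03 in KO and 0.02, 0.03 and 0.02 in WT), and not every library correlated best with its own number, so the numbers were not taken as pairs. With the replicate block the KO counts were 764 and 795, the WT counts 854 and 918 and the difference 38 and 33, and 2 named calls changed (Birc2 lost, adjusted p = 0.054, and Hp gained, 0.036). At 21500000 reads or more per CM KO or TGFb KO library, genes near 0 in 1 treatment had the widest errors among those named (1.22 for Gja4, 1.08 for Sema7a and Pira1).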

Other observations

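Further gene groups gave mixed counts in KO, set against 5.2% of all genes higher and 5.39% lower with CM. Of immediate-early genes, 0 of 23 were higher (2 at an unadjusted p below 0.05) and 8 (34.8%) lower (1 and 6 with equal totals, and 5 lower without CM KO 1, CM KO 2, TGFb KO 1 or TGFb KO 3), among them Fos (819, 534 and 458 with CM, 1177, 1070 and 1006 with TGFb, -0.89 ± 0.19), Egr1 (-0.60 ± 0.11) and the mRNA-decay factor Zfp36 (-0.47 ± 0.11). Growth hormone and IGF axis genes had 2 higher and 5 lower of 19 (0 higher without CM KO 1 and 1 without CM KO 2, TGFb KO 1 or TGFb KO 3), with Igf1 at 14522, 15213 and 12588 with CM and 20494, 22118 and 19157 with TGFb (-0.55 ± 0.09) and Igfbp1 at 15257, 15388 and 13697 and 25268, 22833 and 18845 (-0.59 ± 0.11). The groups did not overlap for either gene. p53 targets had 1 higher and 5 lower of 20, with Plk2 higher (0.95 ± 0.09) and Gadd45a (-0.67 ± 0.12), Btg2 (-0.51 ± 0.08) and Sesn2 (-0.68 ± 0.10) lower. These calls passed an adjusted p below 0.05 in limma.

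Cell cycle genes had 3 higher and 3 lower of 26. The replication helicase subunits went apart, with Mcm6 at 1134, 806 and 1382 with CM and 2639, 3005 and 3160 with TGFb (-1.44 ± 0.15) and Mcm2 at 462, 356 and 478 and 172, 273 and 243 (0.92 ± 0.19). Glucose genes had 3 higher and 3 lower of 30, and the glucose transporter Slc2a1 read 30277, 32130 and 34015 with CM and 56269, 50337 and 54436 with TGFb (-0.74 ± 0.10). Stress-response genes had 3 higher and 5 lower of 28, among them the serine synthesis enzymes Phgdh (0.87 ± 0.13) and Psat1 (0.52 ± 0.09) on the higher side and the amino acid transporter Slc7a5 (-0.61 ± 0.11) on the lower. Urea cycle and amino acid genes had 1 higher and 5 lower of 40 (2 lower without TGFb KO 1 or with equal totals, 3 without CM KO 3 or TGFb KO 3), with the glycine-cleavage enzyme Gldc higher (1315, 1223 and 1099 with CM, 611, 533 and 842 with TGFb, 0.89 ± 0.14). Of apolipoprotein genes, 0 higher and 4 lower of 23 passed (0 higher at an unadjusted p below 0.05, and 2 lower without CM KO 3, without TGFb KO 3 or with equal totals), among them Apoa4 (4969, 4418 and 5964 with CM, 8571, 6930 and 9427 with TGFb, -0.70 ± 0.11). MHC class I genes had 1 higher and 1 lower of 22, namely the regulator Nlrc5 (0.70 ± 0.13) and the class I heavy chain H2-K1 (-0.44 ± 0.10), whose reads can be shared with its paralogs. Checkpoint and T cell restraining genes had 1 higher and 3 lower of 18 (0 lower without CM KO 3, and 1 without TGFb KO 1, without TGFb KO 2 or with equal totals), and the higher one was Nectin2, a ligand of TIGIT (377, 501 and 523 with CM, 280.4, 219 and 251 with TGFb, 0.89 ± 0.18). Endothelial markers had 2 higher and 2 lower of 20 (1 and 1 without TGFb KO 3, 1 higher without CM KO 2 or CM KO 3, and 1 lower without CM KO 1), with Lyve1 (1.22 ± 0.30) higher and Tek (-1.42 ± 0.35) lower. Of ribosomal protein genes 1 higher and 0 lower of 35 passed (0 higher without CM KO 1, CM KO 3 or TGFb KO 3). At an unadjusted p below 0.05 in limma, 9 of them were higher and 1 lower, and their median was 0.12.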
